A study of Mus musculus with 12 samples.

Results

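The data compared a mouse oligodendrocyte precursor line that carries an HRasL61 plasmid, labelled OPCL61, with its parent culture, labelled OPC. The means compared came from 4 of the 12 arrays of the series, 2 for each group. The spread behind the p-values was estimated from all 12 arrays. Each gene was read from 1 probe set, the one whose mean across the 12 arrays was highest. Of 18193 genes with a probe set of their own symbol, 12787 passed a filter on low signal in at least 1 of the 6 groups and were tested. Both groups came from p53-/- BL6 embryos at embryonic day 14.5. Telencephalic neural stem cells had been turned into precursors by a medium of DMEM and 0.25% FCS to which 10 ng/ml PDGFAA and 2 ng/ml bFGF were added, and sequential immunopanning then enriched them. The OPCL61 cells had in addition been electroporated with a plasmid for HRasL61 and EGFP and with a neomycin resistance plasmid, selected with neomycin (0.5 mg/ml), and green cells were taken by flow cytometry. The labels give none of these steps for the parent, so the effect of HRasL61 cannot be told apart from that of electroporation, drug selection and sorting. The labels do not say whether the line is 1 clone. Nothing says that the 2 arrays of a group came from separate cultures, so the p-values measure only the spread between arrays within the 6 groups. The neural stem cell pair (NSC and NSCL61) and the astrocyte pair (AST and ASTL61) entered the probe set choice, the filter and the estimate of spread. They also served to show where the precursor line differed from them. Both pairs had the genotype, strain and embryonic age of the OPC pair. The AST parent was induced by 10% FCS for 3 weeks, and NSCL61 and ASTL61 carry the same plasmids and were selected and sorted like OPCL61.

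Oligodendrocyte precursors are the dividing glial cells that later form myelin. They are kept in that state by transcription factors such as Olig1, Olig2 and Sox10, and they divide in response to PDGF through its alpha receptor, Pdgfra. Ras proteins relay such receptor signals to the RAF, MEK and ERK kinases, which switch on AP-1 transcription factors and, as brakes, Sprouty proteins and dual-specificity phosphatases. The L61 substitution holds Ras in its active state, and activated Ras in p53-deficient glial cells is a common way to model glioma in mice.

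The OPC arrays carried precursor markers of their label, though not all at a high level. On the log2 signal scale of the deposited values, the parent read 13.86 and 14.04 for Olig1, 12.31 and 12.24 for Olig2 and 11.29 and 11.85 for Pdgfra. Its means were lower for Cspg4 (8.255), Nkx2-2 (8.23) and the chosen Sox10 probe set (6.44). The mean of the tested astrocyte genes was 9.5 and 9.4 in the OPC arrays, against 6.3 in each AST array. Of 14 microglial and macrophage genes 10 did not pass the filter, among them Aif1, Cx3cr1, P2ry12 and Ptprc, and of 10 endothelial genes 8 did not, among them Pecam1, Cdh5 and Vwf. The lysosomal protein gene Cd68, common in macrophages but not limited to them, was higher by 3.22 log2 units in OPCL61. The mean signal of the 15 tested fibroblast and pericyte genes was 4.66 and 4.54 in the OPC arrays and 5.03 and 4.76 in the OPCL61 arrays. In bulk samples like these, fewer cells of a type and less RNA per cell cannot be told apart. The 2 arrays of a group differed from each other with an SD over genes of 0.28 log2 units for OPC and 0.42 for OPCL61. The 5′ control probe set for 18S RNA read 8.71 and 12.59 on the OPC arrays and 9.48 and 8.69 on the OPCL61 arrays, so OPC array 2 stood apart there within its pair. NSC array 2 and NSCL61 array 2, which enter the comparison between lines, were high as well (12.13 and 11.67). The part of this in the results was not tested, and results that change without that array are given with it.

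In OPCL61, 3137 genes were higher (24.5% of those tested) and 3044 were lower (23.8%) than in OPC at an adjusted p below 0.05, together 48.3%. Counts of called list members are to be read beside these shares. The median difference over all tested genes was 0.05 log2 units. A called difference of at least 1 log2 unit, or 2-fold, was found for 2777 genes (21.7%). Beyond 4-fold 496 genes were higher and 493 lower, and beyond 16-fold 107 were higher and 84 lower. The values of the 2 groups did not overlap for 75% of all tested genes, so a lack of overlap is not in itself unusual here. The size of a difference is therefore given beside each call. No detection calls come with the values. The bacterial control probe sets named TrpnX read 2.71 to 3.33 on the 4 arrays, and all other bacterial controls read 6.46 or more. A group mean under the filter of 5.18 may thus be background, so no fold is printed for a single gene where one lies there, and its log2 difference is that of the deposited values only. Probe sets of 1 gene can also differ in the size of their change, as for Mbp, and values are those of the chosen probe set unless another is named.

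**Figure D1:**
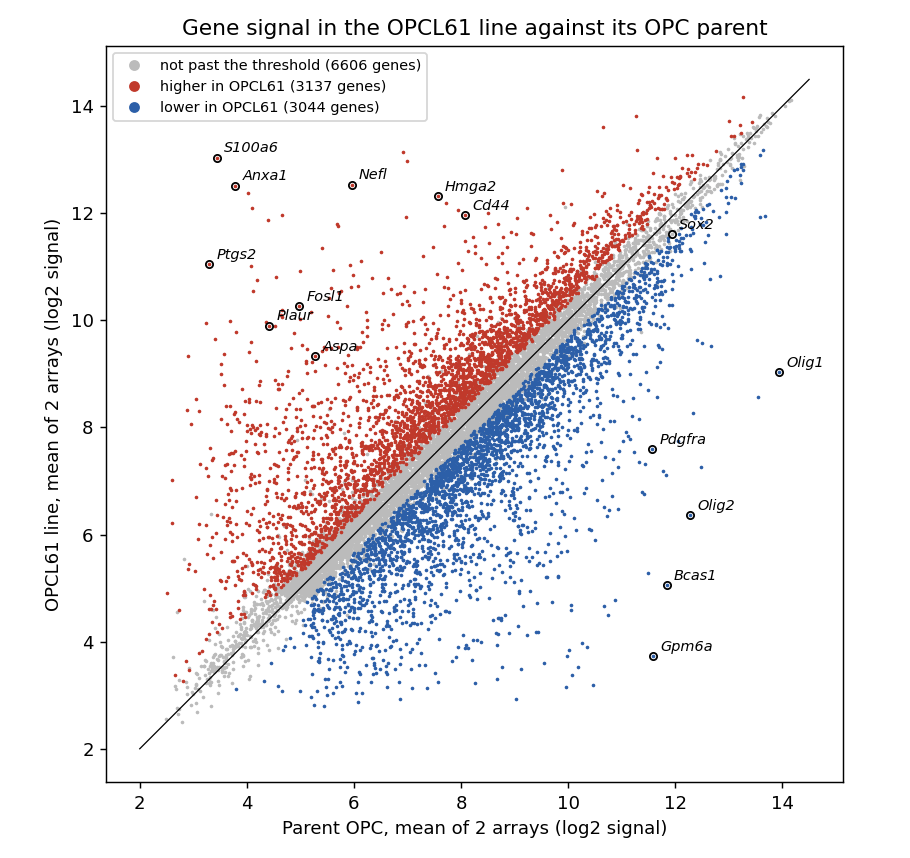
Mean log2 signal of each tested gene in the 2 OPC arrays (horizontal axis) and the 2 OPCL61 arrays (vertical axis), with red points for genes higher and blue points for genes lower in OPCL61 at an adjusted p below 0.05. S100a6, Anxa1 and Ptgs2 lie far above the line of equal signal and Gpm6a, Bcas1 and Olig2 far below it, while Sox2 lies near it.

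Most transcription factors that define the precursor state were lower in the line. Olig1 read 9.18 and 8.89 in the OPCL61 arrays, 30.2-fold below the parent (log2 difference -4.92, SE 0.17, adjusted p = 8.71e-08). Olig2 read 6.82 and 5.90, 60.2-fold below the parent (log2 difference -5.91, SE 0.25, adjusted p = 2.23e-07). No OPCL61 array came near the range of the parent for either gene. Sox8, a SoxE factor of the oligodendrocyte lineage, read 8.52 and 9.61 in OPC and 4.61 and 3.98 in OPCL61 (log2 difference -4.78, SE 0.32, adjusted p = 3.81e-06). Sox6, a SoxD factor that restrains precursor differentiation, read 10.56 and 10.91 in OPC and 6.67 and 6.03 in OPCL61 (log2 difference -4.39, SE 0.22, adjusted p = 5.67e-07). Hes5, a Notch-driven repressor of differentiation, fell by 3.46 log2 units, Myt1 by 2.88, Nkx2-2 by 2.13 and Sox5 by 1.46. The difference of Nkx2-2 was -1.40 without OPCL61 array 2. Of the 10 tested factors of 14 listed, 8 were lower and none was higher, with a median log2 difference of -3.17. Of the 10, 2 passed the filter only through the OPC mean, so their direction was fixed by the filter.

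Sox10 and Tcf7l2 did not pass the test. The Sox10 probe set chosen by the rule read 6.45 and 6.44 in OPC and 6.26 and 6.28 in OPCL61, a difference of -0.17 (adjusted p = 0.194). The other Sox10 probe sets gave lower means in OPCL61, with log2 differences of -2.27 and -0.84. The Sox10 result thus depends on which probe set is read.

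Receptors, adhesion molecules and matrix proteins of the precursor surface were lower in larger number. Of 25 listed genes 23 were tested, 21 were lower and none was higher, with a median log2 difference of -4.06. Of these 23, 10 passed the filter only through 1 group of the OPC pair, so that the filter fixed their direction and the count and median give no support of their own. Gpm6a, a membrane glycoprotein of neural cells, read 11.50 and 11.66 in OPC and 3.69 and 3.77 in OPCL61. The log2 difference was -7.85 (SE 0.12, adjusted p = 8.91e-10). Cntn1, the adhesion molecule contactin-1, fell by 6.01 log2 units on its chosen probe set, and its other probe sets differed by -9.34 and -9.13. Pdgfra read 8.05 and 7.14 in OPCL61 and was 15.8-fold lower (log2 difference -3.98, SE 0.44, adjusted p = 8.14e-05). The proteoglycan Cspg4, known as NG2 and used with Pdgfra to mark precursors, read 8.06 and 8.45 in OPC and 6.37 and 6.31 in OPCL61, a fall of 3.78-fold (adjusted p = 1.14e-05), while another of its probe sets differed by -3.27 log2 units.

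Other surface genes showed falls of the same order or larger. Ptprz1, a receptor-type phosphatase that binds pleiotrophin, read 12.20 and 12.47 in OPC and 8.83 and 7.72 in OPCL61. Ednrb, an endothelin receptor, read 12.45 and 12.51 in OPC and 7.78 and 6.73 in OPCL61. Gpr17, a receptor of precursors about to differentiate, read 9.43 and 10.52 in OPC and 3.76 and 3.71 in OPCL61. The brain lecticans and their partner tenascin-R fell as well, with log2 differences of -4.71 for Bcan, -2.47 for Ncan and -4.25 for Tnr. Vcan was lower by 1.13 log2 units (adjusted p = 0.0213), a call lost when OPC array 2 or OPCL61 array 2 was left out and with the mean of all its probe sets (-0.22). Matn4 and Sema5a were the tested members that did not pass, at 0.09 and 0.19 log2 units. Pcdh15 was below the filter under the probe-set rule, although another of its probe sets had means of 9.07 in OPC and 2.73 in OPCL61.

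Ion channels and glutamate receptors, by which precursors sense neuronal activity, showed the same direction for most members. Of 18 tested genes 14 were lower and 2 were higher, with a median log2 difference of -1.51. The filter fixed the direction of 9 of the 18, which passed only through 1 group of the OPC pair. The A-type potassium channel gene Kcnd2 read 8.86 and 9.37 in OPC and 3.73 and 3.24 in OPCL61. The metabotropic receptor gene Grm5 read 9.11 and 9.35 in OPC and 4.21 and 4.03 in OPCL61. Their log2 differences were -5.63 (SE 0.28) and -5.11 (SE 0.13). Kcnj10, an inwardly rectifying potassium channel of glia, fell by 4.33 log2 units, the AMPA receptor subunit Gria4 by 4.26 and the auxiliary subunit Cacng4 by 3.88. Cacna2d1 was higher by 2.22 log2 units on its chosen probe set, but another probe set differed by -0.71, and the call was lost with the mean of all probe sets. Leaving out either OPC array or OPCL61 array 1 left 1 higher gene in this list.

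Genes of the later oligodendrocyte stages did not replace them. Of 19 tested myelin and maturation genes 13 were lower and 1 was higher, with a median log2 difference of -1.45, and 4 had passed the filter only through 1 group of the OPC pair. Bcas1, a marker of newly formed oligodendrocytes, read 11.57 and 12.12 in OPC and 5.06 in each OPCL61 array. Cnp, an early myelin enzyme, read 12.71 and 12.64 in OPC and 9.92 and 9.14 in OPCL61. The gene of the gap junction protein Gjc3 differed by -6.17 log2 units, that of the oligodendrocyte-myelin glycoprotein Omg by -4.34, and Mbp by -3.97, with -7.21 and -6.21 on other Mbp probe sets. The exception was Aspa, the enzyme that cleaves N-acetylaspartate in oligodendrocytes, which read 5.63 and 4.93 in OPC and 9.17 and 9.49 in OPCL61 (log2 difference 4.05, SE 0.27, adjusted p = 3.59e-06).

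Genes used as astrocyte markers were also lower. Of 19 tested genes 13 were lower and 2 were higher, with a median log2 difference of -2.29, and 3 had passed the filter only through 1 group of the OPC pair. Aldoc, a glycolytic enzyme of glia, read 13.52 and 13.58 in OPC and 8.91 and 8.24 in OPCL61. S100b read 9.43 and 10.21 in OPC and 5.18 and 5.25 in OPCL61, and Mlc1 fell by 3.80 log2 units. Gja1, the main astrocyte gap junction protein, was higher by 1.70 log2 units and Clu, a secreted chaperone, by 2.55. Gfap read 7.73 and 6.07 in OPC and 6.04 and 5.62 in OPCL61 and did not pass (adjusted p = 0.0582), while other Gfap probe sets differed by -1.84 and -3.36. Many of these genes are expressed by precursors too, so the list does not separate the cell types.

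Of 16 tested genes shared with neural stem cells 3 were higher, 3 were lower and 10 did not pass, with a median of -0.16, beside 48.3% called over all genes. Sox2, a core stem cell factor, read 11.99 and 11.89 in OPC and 11.64 and 11.58 in OPCL61 (log2 difference -0.33, SE 0.57, adjusted p = 0.664). The intermediate filament gene Nes and the glial factor Sox9 had differences of 0.13 (SE 0.18) and 0.07 (SE 0.27). Hmga2, a chromatin protein of fetal stem cells, was higher in the line. It read 7.34 and 7.79 in OPC and 12.15 and 12.50 in OPCL61, 27.1-fold higher (adjusted p = 5.02e-06). Prom1, which encodes the CD133 surface protein, read 3.49 and 3.73 in OPC and 8.57 and 8.22 in OPCL61 (log2 difference 4.79, adjusted p = 1.58e-06). In the other direction, Sox3 read 9.58 and 9.65 in OPC and 5.16 and 5.26 in OPCL61.

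Notch genes that passed were all lower, 5 of 12 tested (41.7%, beside 48.3% called over all genes). The ligand gene Dll3 differed by -5.45 log2 units, the receptor gene Notch1 by -2.23, and the feedback gene Nrarp and the modifier Lfng by -1.45 and -1.30. Dll3 passed the filter only through the OPC mean, so the filter fixed its direction. The fifth was Hes5. Hes1, Hey1, Notch2, Jag1 and Jag2 did not pass. Among neuronal genes, 3 of 16 tested were higher and 5 were lower, and the 50% called is near the share over all genes. Of the 16, 2 had passed the filter only through 1 group of the OPC pair. The neurofilament genes Nefl and Nefm rose, Nefl from 5.87 and 6.04 to 12.34 and 12.72, while Nefm was higher by 3.96 log2 units. Map2, a microtubule protein that precursors also make, fell by 3.69 log2 units, while Tubb3 and Gap43 did not pass.

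**Figure D2:**
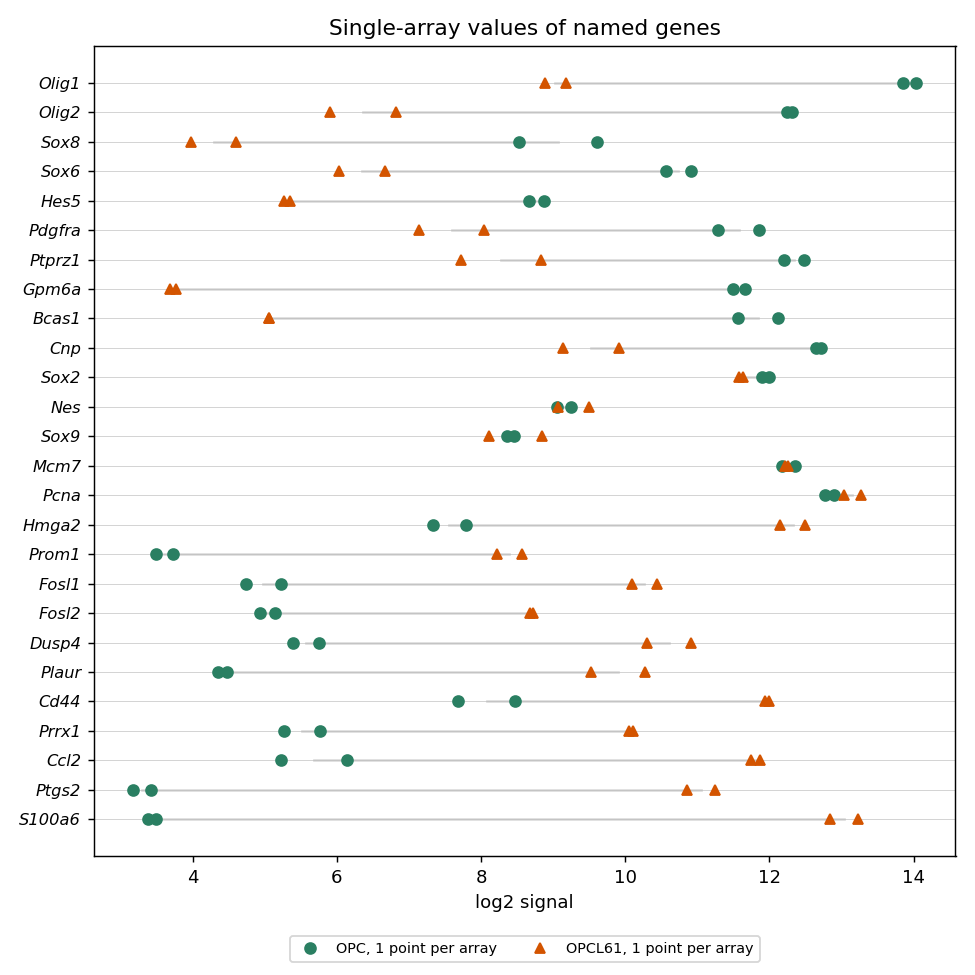
Log2 signal of 26 named genes, with 1 point for each of the 2 OPC arrays (circles) and the 2 OPCL61 arrays (triangles) and a line between the group means. The precursor genes at the top lie to the left in OPCL61, Sox2, Nes, Sox9, Mcm7 and Pcna lie close together in both groups, and the genes from Hmga2 to S100a6 lie to the right in OPCL61.

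Feedback and output genes of the ERK pathway rose in most cases. Of 20 tested genes 13 were higher, 2 were lower and 5 did not pass, with a median log2 difference of 1.16. The ERK phosphatase gene Dusp4 read 5.39 and 5.76 in OPC and 10.92 and 10.30 in OPCL61, 32.8-fold higher (adjusted p = 5.63e-05). Dusp5, another nuclear ERK phosphatase, rose by 3.00 log2 units, and Epha2, an ephrin receptor induced by Ras signalling, rose by 2.88. Emp1, an epithelial membrane protein, read 6.32 and 4.47 in OPC and 11.18 and 11.51 in OPCL61. Plaur, the urokinase receptor, read 4.35 and 4.48 in OPC and 9.52 and 10.27 in OPCL61. For both, every OPCL61 value lay more than 4 log2 units above every OPC value.

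The Sprouty and Ets members did not move together. Spry4 rose by 1.80 log2 units (adjusted p = 0.00416), while Spry1 and Spry2 differed by -0.30 and -0.20 and did not pass. The Ets factor gene Etv5 read 10.47 and 10.63 in OPC and 9.76 and 8.53 in OPCL61, a fall of 1.41 log2 units that was not called without OPC array 2 and was -0.79 without OPCL61 array 2. Etv4 had a difference of -0.36 and did not pass. Dusp6, a cytoplasmic ERK phosphatase, was higher by 1.45 log2 units (adjusted p = 0.0154), and this call was lost when either OPC array or OPCL61 array 1 was left out, the last of which gave 0.92. The count of lower ERK genes was 0 without OPC array 2 and 1 without OPCL61 array 2.

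AP-1 subunits rose in 9 of 14 tested cases and none fell, with a median of 0.76. Fosl1, which encodes FRA1, read 4.74 and 5.23 in OPC and 10.09 and 10.45 in OPCL61 (log2 difference 5.28, SE 0.31, adjusted p = 1.68e-06). Fosl2, which encodes FRA2, read 4.93 and 5.14 in OPC and 8.68 and 8.73 in OPCL61 (log2 difference 3.67, SE 0.15, adjusted p = 1.79e-07). Junb rose by 2.89 and the small Maf gene Maff by 2.60 log2 units. Fos read 8.09 and 8.61 in OPC and 9.45 and 7.61 in OPCL61, so its groups overlapped, and Jun differed by 0.32 (adjusted p = 0.157). The rise was thus measured for the Fos-related antigens and not for Fos or Jun.

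AP-1 subunit genes were among those that rose. The stretch before the transcription start of each gene was searched for an AP-1 element and for other short motifs, given below. The AP-1 motif was TGANTCA on both strands, searched from 250 bases before to 50 bases after each RefSeq start on build GRCm38.p6. The same letters form the core of elements bound by Maf and NF-E2 factors. The windows of 10292 tested genes were available, and 6.31% of these genes held the motif in at least 1 window. It was present for 14.2% of the 388 genes higher by at least 4-fold and for 20.7% of the 82 higher by at least 16-fold. For genes lower by at least 4-fold and 16-fold the shares were 4.8% of 375 and 4.84% of 62. Among all 26794 genes with a window the share was 9.03%. Base composition differed between these sets, when the window with most CpG dinucleotides was taken for each gene. The median count over genes was 22 for tested genes, and 13 and 12 for those higher and lower by at least 16-fold. The TATA motif TATAAA also had unequal shares, 9.15% of tested genes, 23.2% of those higher and 14.5% of those lower by at least 16-fold. For genes higher and lower by at least 4-fold, the E-box motif CAGCTG stood at 24.5% each, against 18.1% of tested genes. The CRE motif TGACGT stood at 7.99% and 8.27%, against 12.8%. The SOX motif ACAATG stood at 9.79% and 11.7%, against 9.09%. The TEAD motif GGAATG stood at 15.7% and 17.1%, both above its share of tested genes. These shares describe letters in a window and no binding was measured.

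Among list members and the genes with the largest rises, 15 genes called higher were counted with the AP-1 motif before their start. The count covers only genes whose windows were searched and may miss members. The 5 of these 15 with the largest rise are printed here as examples. They are only a part of the 17 genes behind the share given for genes higher by at least 16-fold, which came from all tested genes. Each is the 250 bases before the start, 5′ to 3′ on the strand of the gene, with the motif in capitals.
Anxa2, chr9:69453433-69453682, plus strand: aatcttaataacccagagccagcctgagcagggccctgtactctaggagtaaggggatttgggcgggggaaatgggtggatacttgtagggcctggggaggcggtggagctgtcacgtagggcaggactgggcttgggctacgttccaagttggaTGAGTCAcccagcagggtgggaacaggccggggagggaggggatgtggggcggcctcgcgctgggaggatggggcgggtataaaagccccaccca
Emp1, chr6:135362681-135362930, plus strand: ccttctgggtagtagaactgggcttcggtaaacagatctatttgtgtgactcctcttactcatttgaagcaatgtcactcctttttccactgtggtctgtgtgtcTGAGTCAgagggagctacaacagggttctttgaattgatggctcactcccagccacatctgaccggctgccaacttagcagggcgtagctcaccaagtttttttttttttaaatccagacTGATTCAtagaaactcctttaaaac
Plaur, chr7:24462233-24462482, plus strand: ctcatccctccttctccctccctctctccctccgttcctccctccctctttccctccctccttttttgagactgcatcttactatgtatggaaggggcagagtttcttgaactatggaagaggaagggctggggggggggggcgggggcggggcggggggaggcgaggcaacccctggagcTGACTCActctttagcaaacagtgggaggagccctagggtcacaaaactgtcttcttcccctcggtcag
Prom1, chr5:44101737-44101986, minus strand: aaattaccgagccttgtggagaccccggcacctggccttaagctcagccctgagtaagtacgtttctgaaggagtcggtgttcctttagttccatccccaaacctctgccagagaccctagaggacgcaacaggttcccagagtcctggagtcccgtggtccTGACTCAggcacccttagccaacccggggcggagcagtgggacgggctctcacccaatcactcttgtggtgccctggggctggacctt
Lif, chr11:4257318-4257567, plus strand: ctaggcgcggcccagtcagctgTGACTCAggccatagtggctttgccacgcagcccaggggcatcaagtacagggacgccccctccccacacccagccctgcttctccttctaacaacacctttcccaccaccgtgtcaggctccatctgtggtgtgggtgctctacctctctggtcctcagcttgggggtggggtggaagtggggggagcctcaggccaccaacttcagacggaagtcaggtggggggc
Counting back from the start, the motif began at base -95 for Anxa2, -69 for Plaur, -88 for Prom1 and -228 for Lif. Emp1 held 2 copies, at -145 and -25. The log2 differences of these genes were 6.23 for Anxa2, 5.95 for Emp1, 5.48 for Plaur, 4.79 for Prom1 and 4.61 for Lif. S100a6, Anxa1, Timp1 and Ptgs2, with rises of 7.75 to 9.60 log2 units, had no TGANTCA before their starts in these windows.

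Calcium-binding S100A and annexin genes showed the largest rises of the comparison. Of 16 tested, 12 were higher and 1 was lower, with a median log2 difference of 1.84, and 15 passed the filter in a group outside the OPC pair. S100a6, also called calcyclin, read 3.38 and 3.49 in OPC and 12.85 and 13.23 in OPCL61, a log2 difference of 9.60 (SE 0.14, adjusted p = 6.17e-10). Anxa1, a phospholipid-binding protein that limits inflammation, read 3.89 and 3.68 in OPC and 12.32 and 12.71 in OPCL61. Anxa2, which forms a complex with S100a10 at the membrane, read 7.42 and 6.42 in OPC and 12.98 and 13.32 in OPCL61, and S100a10 itself rose by 2.86 log2 units. Anxa7 and Anxa5 rose by 4.78 and 4.11. The exception was S100a16, which read 11.39 and 12.13 in OPC and 7.54 and 6.82 in OPCL61. Without OPC array 2 there were 2 lower genes.

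The prostaglandin pathway rose at several steps. Ptgs2, which encodes the inducible cyclooxygenase COX-2, read 3.17 and 3.42 in OPC and 10.86 and 11.24 in OPCL61 (log2 difference 7.75, adjusted p = 1.39e-07). Ptgfr, the receptor for prostaglandin F2 alpha, was higher by 3.81 log2 units. The phospholipase gene Pla2g4a, which releases the substrate, was called higher by 0.81. Its means of 3.24 in OPC and 4.06 in OPCL61 both lay below the filter and may be background. The brain-type prostaglandin D synthase Ptgds fell by 2.18. In all, 6 of 11 tested genes were higher and 1 was lower, and 3 of the 11 had both means below the filter.

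Secreted signals rose or did not pass, and none fell among 20 tested cytokine and chemokine genes. Of these 55% were called, beside 48.3% over all genes. The 11 that rose included Ccl2, a monocyte attractant, which read 6.14 and 5.23 in OPC and 11.74 and 11.87 in OPCL61. Lif, a cytokine of the interleukin-6 family, read 4.46 and 4.05 in OPC and 9.68 and 8.04 in OPCL61. Tslp, a cytokine of barrier tissues, read 3.56 and 3.49 in OPC and 10.24 and 7.75 in OPCL61, with a gap of more than 2 log2 units between the 2 arrays of the line. The membrane-bound chemokine Cx3cl1 rose by 3.89 log2 units and Csf3 by 2.74. Il33 read 5.74 and 5.32 in OPC and 10.03 and 6.65 in OPCL61 and did not pass (adjusted p = 0.0713). Without OPC array 2 the count of rises fell from 11 to 7.

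Of 9 tested EGF family genes 4 were higher and 2 were lower, and 1 had passed the filter only through 1 group of the OPC pair. The ligand genes Hbegf and Btc rose by 3.34 and 3.65 log2 units, and Nrg1 by 2.81. The neuregulin receptor gene Erbb3 read 7.73 and 7.82 in OPC and 4.42 and 4.69 in OPCL61 (adjusted p = 1.29e-07). Egfr was lower by 0.58 (adjusted p = 0.0163), a call lost when OPC array 1 or OPCL61 array 2 was left out, which left 1 lower gene in the family. Other Egfr probe sets differed by -3.91, -1.96 and -1.08. The receptor gene Erbb2 (-0.24) and the ligand gene Tgfa (-0.12) did not pass, although another Tgfa probe set read 8.72 in OPC and 4.43 in OPCL61 on average.

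Mesenchymal and adhesion genes rose in 18 of 25 tested cases and fell in 2, with a median of 1.24. Cd44, the hyaluronan receptor, read 8.48 and 7.68 in OPC and 11.94 and 11.99 in OPCL61 (log2 difference 3.89, SE 0.26, adjusted p = 3.21e-06). Among transcription factors, Twist2 read 4.57 and 5.07 in OPC and 8.99 and 9.98 in OPCL61, and Prrx1 read 5.27 and 5.77 in OPC and 10.05 and 10.11 in OPCL61. Zeb1 and Zeb2, which also drive mesenchymal programs but are well expressed in glia, fell by 1.17 and 1.58 log2 units, the latter with -1.06 when OPCL61 array 2 was left out. The receptor tyrosine kinase Axl rose by 3.12 and the integrin subunit gene Itga3 by 3.81. Collagens and other fibroblast genes did not follow as a group: 2 of 15 tested fibroblast and pericyte genes were higher, 1 was lower and 12 did not pass. Col1a1 and Lum had log2 differences of -0.03 and 0.21, while Col3a1 read 4.40 and 4.02 in OPC and 8.12 and 6.92 in OPCL61. Acta2, smooth muscle actin, fell by 3.25. Without OPC array 1 the count of higher fibroblast genes was 1.

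Proteases and their inhibitors were mixed, with 5 of 16 tested genes higher and 3 lower. The 50% called is near the 48.3% over all genes. The inhibitor Timp1 read 3.96 and 4.22 in OPC and 12.48 and 11.72 in OPCL61, and Timp4 went the other way, from 9.98 in each OPC array to 6.82 and 6.89. Mmp9 was higher by 1.31 log2 units (adjusted p = 0.00166), and by 0.86 without OPCL61 array 1. Mmp2, Mmp10 and Mmp13 did not pass, and without OPCL61 array 1 the count of lower genes was 5. Of 7 tested keratin and tight epithelial genes 3 were higher and none was lower, 42.9% called beside the same 48.3%. The strongest was Perp, a desmosome protein, at 4.25 log2 units, and Krt6a, an epidermal keratin outside that list, was among the 20 largest rises at 66.7-fold.

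Glycolysis and hypoxia genes rose in 15 of 20 tested cases and none fell, with a median of 1.21. The glucose transporter gene Slc2a1 read 7.62 and 7.91 in OPC and 10.34 and 9.85 in OPCL61 (adjusted p = 7.36e-06), and Slc2a3 rose by 2.34 log2 units. The phosphofructokinase gene Pfkp rose by 2.16, Pkm by 1.16 and Ldha by 0.92. Ndrg1, a gene induced by hypoxia, read 5.01 and 5.24 in OPC and 9.35 and 9.58 in OPCL61. Pgk1, Adm and Bnip3 did not pass, and Bnip3 read 11.12 on one array of the line and 8.97 on the other. Without OPC array 2 the count of rises was 9.

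Targets of the antioxidant factor NRF2 were higher in 9 of 17 cases and lower in 2. Akr1b8, an aldo-keto reductase, read 3.96 and 4.18 in OPC and 10.91 and 11.11 in OPCL61. Srxn1, which repairs peroxiredoxins, rose by 2.17 log2 units, while Nqo1 did not pass (difference 0.70, adjusted p = 0.277). Of 17 cholesterol synthesis genes tested, none was higher and 1, Hmgcs1, was lower. That call was lost when either OPC array or OPCL61 array 1 was left out. Without OPCL61 array 1, 4 genes of the list were called higher, and without OPCL61 array 2, 3 were called lower.

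Of 22 DNA replication genes tested 2 were higher, none was lower and 20 did not pass, against the 48.3% called over all genes. Mcm7, a subunit of the replicative helicase, read 12.36 and 12.17 in OPC and 12.26 and 12.21 in OPCL61. E2f1, a transcription factor of the G1 to S transition, was higher by 1.27 log2 units (adjusted p = 0.000123). Without OPC array 1 the count of higher genes was 6, and without OPCL61 array 1 it was 4. Of 19 mitosis genes 5 were higher, 2 were lower and 12 did not pass. Ccnb2 read 8.83 and 7.19 in OPC and 10.07 and 10.25 in OPCL61, and Cdk1 differed by 0.19 (adjusted p = 0.319). The difference of Ccnb2 was 2.15 log2 units, and 1.33 without OPC array 2. The higher mitosis genes numbered 2 without OPC array 2 and 3 without OPCL61 array 2, and the lower ones 0 or 1 without any one of the 4 arrays.

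Of 13 regulators of the G1 phase 4 were higher and 5 were lower. Cyclin genes moved apart: Ccnd1 was higher by 0.91 log2 units, Ccnd3 fell by 1.98 and Ccnd2 by 1.14. The kinase gene Cdk6 rose by 2.15, while Cdk4 differed by -0.01. The inhibitor genes Cdkn1a and Cdkn2a rose, in cells of which both groups are p53-/-. Cdkn1a read 6.89 and 6.99 in OPC and 9.93 and 9.24 in OPCL61, and Cdkn2a read 7.38 and 7.49 in OPC and 9.87 and 9.42 in OPCL61. Cdkn2c fell by 1.37 log2 units and Rb1, the retinoblastoma gene, by 1.36. The fall of Ccnd2 was not called when either OPC array or OPCL61 array 2 was left out, with -0.55 in the last case and -1.72 without OPCL61 array 1. Without OPC array 2 or OPCL61 array 2 the count of lower genes was 3.

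Of 11 tested interferon and MHC class I genes 6 were higher and 1 was lower, and the lower one, Stat2, kept its call only without OPC array 2 when each of the 4 arrays was left out in turn. B2m, the light chain, read 10.82 and 10.51 in OPC and 12.41 and 12.33 in OPCL61 (log2 difference 1.71, SE 0.13, adjusted p = 9.54e-06), and the heavy chain genes H2-K1 and H2-D1 rose by 1.72 and 1.74. H2 genes are close copies, so their probes may read each other's transcripts. The interferon-stimulated genes Ifit3 and Bst2 differed by 0.07 and 0.15 log2 units and did not pass. In the BMP pathway the antagonist Grem1 read 4.23 and 3.76 in OPC and 8.31 and 7.77 in OPCL61, while Bmp4 and the receptor gene Bmpr1b fell by 1.49 and 2.78. Of 14 tested genes of that pathway 4 were higher and 6 were lower, and without OPC array 1 the higher ones numbered 2. Igfbp3, a binding protein of insulin-like growth factors, read 10.15 and 9.62 in OPC and 13.02 and 12.60 in OPCL61. In its family 5 of 13 genes were higher, and 46.2% were called in either direction, beside 48.3% over all genes. When either OPC array was left out the higher ones numbered 3.

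**Figure D3:**
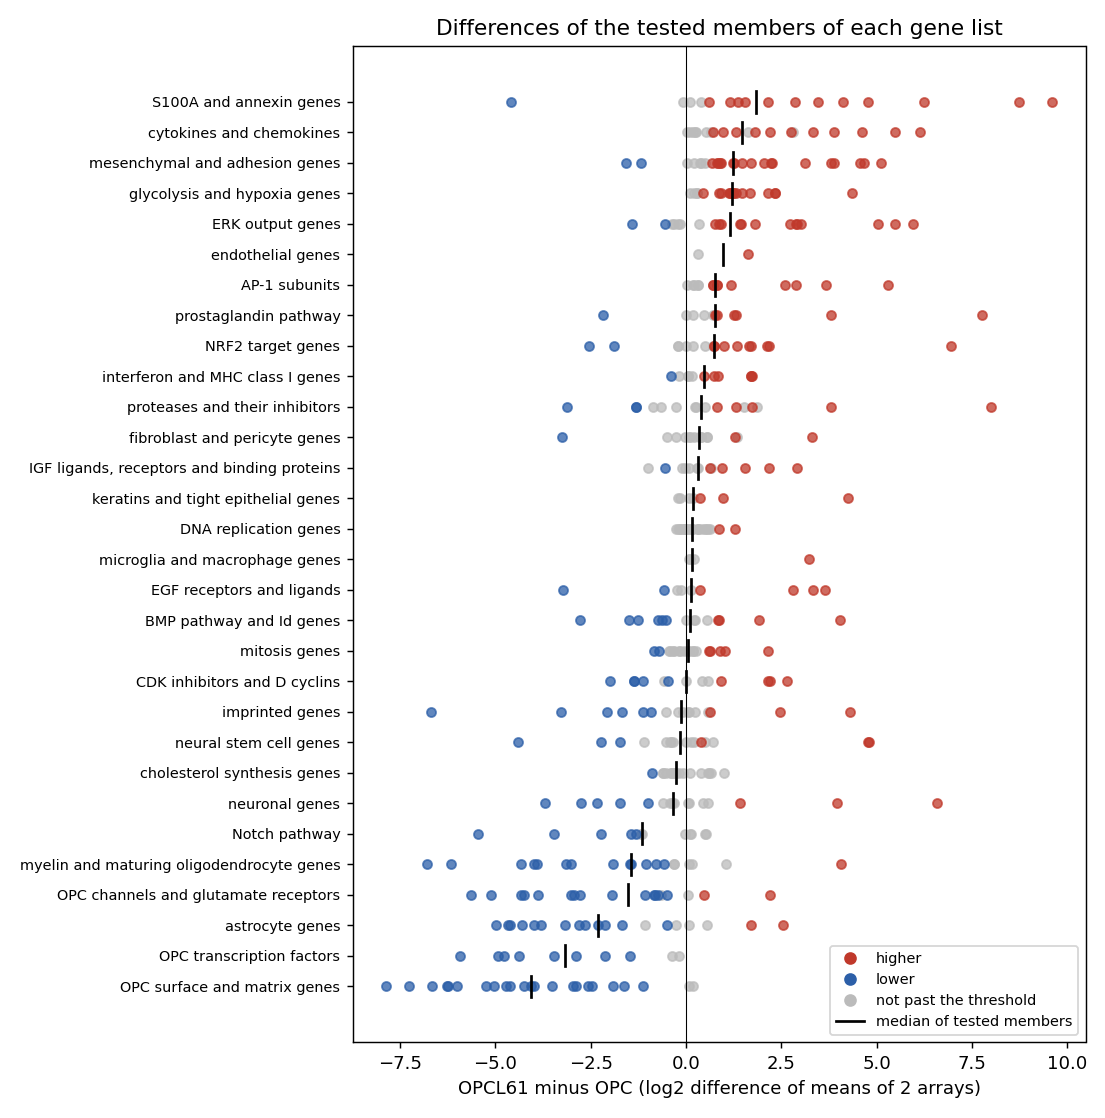
Log2 difference, OPCL61 minus OPC, of every tested member of the 30 gene lists, with red points for higher, blue points for lower and grey points for genes not past an adjusted p of 0.05, and a black bar at each list median. The oligodendrocyte, astrocyte and Notch lists lie at the bottom with medians below -1, and the S100A and annexin, cytokine, mesenchymal, glycolysis and ERK lists lie at the top with medians above 1.

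Imprinted genes had members at both ends. Of 16 tested, 3 were higher and 6 were lower, with a median of -0.14. The share called was 56.2%, beside 48.3% over all genes. Ndn, a growth-restraining gene expressed from the paternal allele, read 9.89 and 10.23 in OPC and 3.27 and 3.49 in OPCL61 (log2 difference -6.68, adjusted p = 1.39e-07). OPCL61 was the only group with low signal, since the NSC, NSCL61, AST and ASTL61 arrays read between 8.51 and 10.39. Dlk1, another paternally expressed gene, read 4.82 and 4.72 in OPC and 10.58 and 7.53 in OPCL61, with about 3 log2 units between the arrays of the line. Its difference was 4.29 log2 units, and 2.77 without OPCL61 array 1. Nnat fell by 3.28 and Phlda2 rose by 2.47 log2 units.

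The changes were next set against the levels in the other parent cultures. Their means took no part in the OPC difference, but their arrays entered the filter and the estimate of spread. For 230 genes the mean rose by at least 4-fold from below the filter in OPC to above it in OPCL61. Of these, 135 (58.7%) were above the filter in both the NSC and AST parents and 62 (27%) in neither. Over all tested genes these shares were 86.9% and 6.91%. The 230 genes were chosen for an OPC mean below the filter, so a lower share in other parents can come from that choice alone. For all 496 genes that rose by at least 4-fold, the shares were 77.6% and 14.1%. S100a6 read between 13.56 and 13.73 on all 8 arrays of the other cultures and 13.04 on average in OPCL61. Ptgs2 read 11.11 to 11.61 on the NSC and AST parent arrays, against 10.86 and 11.24 in OPCL61. For both genes the OPC parent was the only group with low signal. Gpm6a was the reverse, since the 8 arrays of the other cultures read between 2.66 and 3.20 and only the OPC parent was high. Olig2 kept a difference, with 6.82 and 5.90 in OPCL61 and 2.67 to 3.01 on the 8 other arrays.

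A test of the difference between 2 changes asked where the precursor line departed from the neural stem cell line. The NSC parent arrays carried high fibroblast and pericyte signal: the mean of the 15 listed genes was 11.77 and 11.24 there, against 4.66 and 4.54 in OPC. In the NSC pair 14 of the 15 fell, with a median of -7.16. What part this has in the differences between the lines was not tested. The change differed between the lines for 4828 genes (37.8%), 2300 of them with the more positive change in the OPC pair (18%) and 2528 with the more negative one (19.8%). For 3060 genes (23.9%) the difference was also at least 1 log2 unit. Of the 6181 genes called in OPCL61, 2027 (32.8%) were called in the same direction in NSCL61, which is 41.9% of the 4836 called there (37.8% of tested genes), and 742 were called in the opposite direction.

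S100a6 rose by 9.60 log2 units in the OPC pair and differed by 0.13 in the NSC pair (difference of changes 9.47, SE 0.19, adjusted p = 1.36e-08). Anxa1 rose by 8.73 in the OPC pair and fell by 1.45 in the NSC pair. The matrix genes Postn, Tgfbi and Col3a1 rose in the OPC pair by 1.28, 5.11 and 3.31 log2 units and fell in the NSC pair by 7.87, 3.75 and 4.86. The rise of Postn in the OPC pair was not called without either OPC array or OPCL61 array 2, the last of which gave 0.64. In the other direction, Nrcam, a neural adhesion molecule, fell by 2.95 in the OPC pair and rose by 7.37 in the NSC pair. Pcdh8, Tox3, Ugt8a, Aard and Car8 were also lower in OPCL61 and higher in NSCL61 than in their parents.

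**Figure D4:**
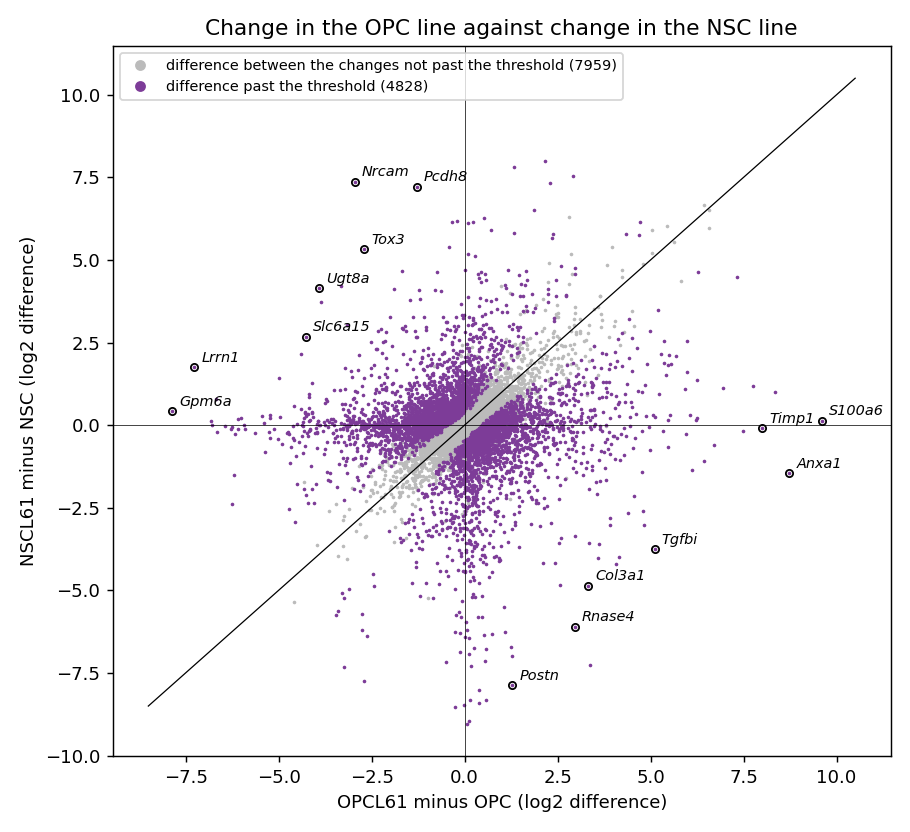
Log2 change of each tested gene in the OPC pair (horizontal axis) against that in the NSC pair (vertical axis), with purple points where the 2 changes differed at an adjusted p below 0.05 (4828 genes) and a line of equal change. S100a6, Timp1 and Gpm6a lie far out along the horizontal axis near 0 in the NSC pair, and Nrcam, Pcdh8 and Postn moved in opposite directions in the 2 pairs.

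For other genes the measured changes were close in size. Nefl rose by 6.57 log2 units in the OPC pair and 6.52 in the NSC pair, a difference of 0.06 (SE 0.33, adjusted p = 0.909). Prom1 rose by 4.79 and 4.87 log2 units, a difference of -0.09 (adjusted p = 0.887). The ERK output genes had medians of 1.16 and 1.19 in the 2 pairs, with 13 of 20 higher in each, but 5 members had a more positive and 4 a more negative change in the OPC pair. The change was more negative in the OPC pair for 8 of 10 precursor transcription factors and for 18 of 23 precursor surface genes. It was more positive for 11 of 16 S100A and annexin genes and 6 of 14 AP-1 subunits. Over all tested genes the shares were 19.8% more negative and 18% more positive. Of the 10 factors 2, of the 23 surface genes 10 and of the 16 S100A and annexin genes 1 had passed the filter only through 1 group of the OPC pair. The filter fixed the direction of these members. Against the astrocyte pair, in which 3 genes were called (0.0235%), 4511 changes differed (35.3%). The AST parent arrays also carried fibroblast and pericyte signal, with list means of 9.28 and 8.74. Their means for the astrocyte genes were 6.3 and 6.3, against 9.5 and 9.4 in OPC. The part of this in the differences was not tested.

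Genes of whole chromosomes had unequal medians, a pattern looked at after the values were seen and given here with no test. Over all 12733 tested genes placed on chromosomes 1 to 19 and X, the median log2 difference was 0.05. For the 775 genes of chromosome 4 it was -0.28, with -0.32 and -0.23 when each OPCL61 array was set against the OPC mean. There 326 genes were called lower and 80 higher. Chromosome 15 had a median of -0.24 (206 lower and 50 higher) and chromosome 16 one of -0.18 (149 lower and 51 higher). Chromosomes 2 and 19 had medians of 0.24 and 0.23, with 385 and 155 genes higher and 123 and 50 lower. Both OPCL61 arrays lay on the same side of 0 for these 5 chromosomes. The single OPC arrays lay at most 0.09 log2 units from their own mean, the widest gap being that of chromosome 19. Without OPC array 2 the median of chromosome 19 was 0.15, and without OPCL61 array 1 that of chromosome 16 was -0.29. The difference within the pair does not say which of its groups departs. Set against the mean of the NSC and AST parents, OPC had medians of -0.08 for chromosome 4 and 0.105 for 15. It had -0.18 for 16, -0.16 for 2 and -0.22 for 19. Set against the mean of NSCL61 and ASTL61, OPCL61 had medians of -0.47, -0.055, -0.42, 0.12 and -0.06 in that order.

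Genes with a mean above the 75th percentile of all values were divided into neighbouring blocks of 25 in chromosome order. On chromosome 4 all 15 blocks had a median below 0, from -0.59 to -0.09, and on chromosomes 15 and 16 all 10 and all 8 did. On chromosome 2 all 21 blocks had a median above 0, from 0.01 to 0.79, and on chromosome 19 8 of 9 did. The same held for all 17 blocks of chromosome 5, all 9 of 12, all 10 of 13, all 8 of 14 and all 7 of 18. For comparison, chromosomes 8 to 11 each had 6 or more blocks on either side of 0. In the NSC pair the chromosome farthest from 0 was 14, with a median of -0.40, and its chromosome 4 stood at 0.11. In the AST pair the medians lay between -0.05 and 0.05. Olig2 is on chromosome 16 and Cdkn2a on chromosome 4, so a gene could rise on a chromosome whose median was lower.

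**Figure D5:**
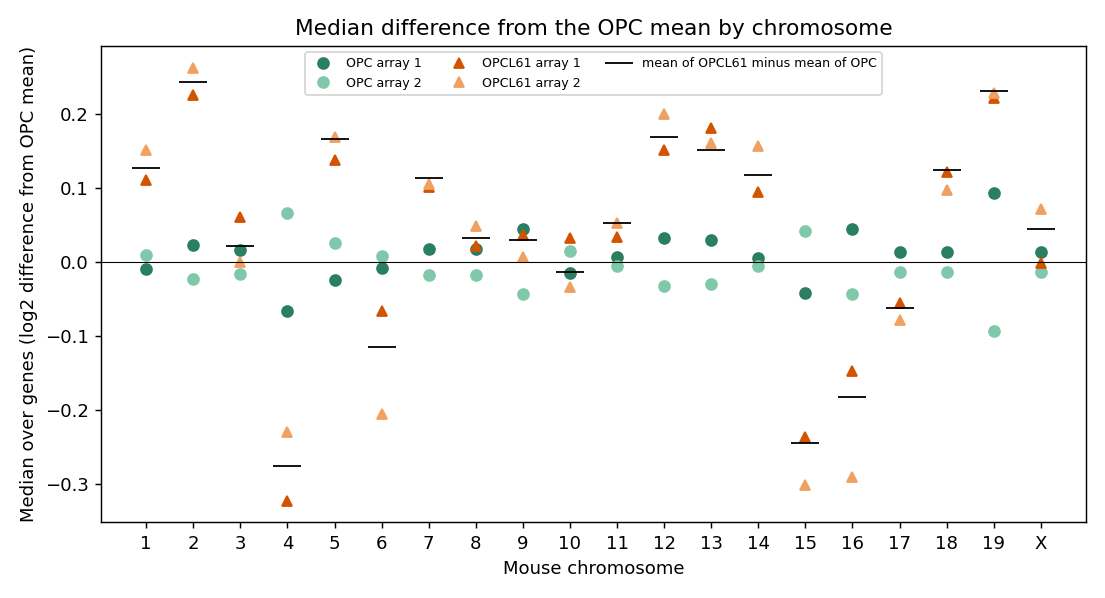
Median over the tested genes of each mouse chromosome of the log2 difference from the OPC mean, for each OPC array (circles), each OPCL61 array (triangles) and the difference of group means (black bars). Chromosomes 4, 15 and 16 lie below 0 and chromosomes 2 and 19 above 0 in both OPCL61 arrays, and the 2 OPC arrays mirror each other because each is set against their mean.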

How the data were processed

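The data were the deposited table of 12 arrays with 45101 probe sets, as log2 signal, per the labels and the values of the table (2.14 to 14.33). Total RNA, 5 µg per sample, was biotin-labelled in a one-cycle transcription reaction, as the labels' protocols say. The normalization method the authors used to make the log2 values is not given in the sources used here, and array medians lay between 5.16 and 5.21. The table keeps no scanner intensities, so the number of arrays, 2 per group, limits the precision. Gene names came from the platform annotation: 34945 probe sets had 1 symbol, 932 had several and 9160 had none and were not named. Each gene was represented by its probe set of highest mean across the 12 arrays, and a gene was kept where at least 1 group mean exceeded the median of all values (5.18). Linear models with 6 group means were fitted with limma 3.58.1 in R 4.3.3 over all 12787 genes at once (6 residual degrees of freedom), 2-sided, with Benjamini-Hochberg adjustment and a threshold of 0.05. "Higher", "lower", "rose" and "fell" are used of genes past it. The procedure was tested on simulated data. Genes were named by rule: the markers Olig2, S100a6, Ptgs2 and Gpm6a, the 20 largest rises and 20 largest falls with no overlap between arrays, members of 30 gene lists, and the 10 largest differences between lines in each direction. Members, lists and rules were chosen with earlier results of these data known. Promoter windows and chromosomes came from RefSeq tables, GRCm38.p6 for the windows. The transcripts of the introduced and the deleted gene are not analysed here. The alternatives tried are given in the closing section.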

Additional observations from a re-analysis of the deposited data

Results flagged for a closer look

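The change in the OPC pair differed from that in the NSC pair for 4828 genes, by a test of the difference between the changes (limma, adjusted p below 0.05), and from that in the AST pair for 4511 genes. The genes with the largest differences between the OPC and NSC pairs are given here as the OPC change minus the NSC change in log2 units. Most positive were the caveolar coat gene Cavin2 at 10.63, Anxa1 at 10.18, S100a6 at 9.47, Postn at 9.16 and the ribonuclease gene Rnase4 at 9.06. Tgfbi stood at 8.86, Arhgdib at 8.26, Col3a1 at 8.17, the hyaluronan-binding gene Cemip at 8.12 and Timp1 at 8.09. The OPCL61 arrays read 9.67 and 5.70 for Cavin2, so its value rests on arrays that lay far apart. Most negative were the adhesion gene Nrcam at -10.32, Lrrn1 at -9.03, the protocadherin gene Pcdh8 at -8.504, Gpm6a at -8.28 and Ugt8a, an enzyme of myelin lipid synthesis, at -8.05. Tox3 stood at -8.02, Aard at -7.60, Car8 at -7.52, Ndn at -7.48 and the transporter gene Slc6a15 at -6.94. The fibroblast signal of the NSC parent arrays moves with several of these genes, and its part in them was not tested.

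Probe sets with no gene name took no part in the comparisons. Of 2090 above the filter, 717 (34.3%) were called between OPCL61 and OPC, 330 higher and 387 lower.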

How the results depend on the processing

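The 23 settings tried changed 1 choice at a time, and no named result reversed. Of 303 named results, 209 kept their direction and their side of the threshold in every setting run for them. The filter at the 75th percentile gave a value for 261 of the 303, and the mean of all probe sets for 298. The count of genes called between OPCL61 and OPC stayed within 1.5 times of 6181 in every setting except a minimum difference of 1 log2 unit, which left 2777 genes, against 3060 for the difference from the NSC pair and 2760 for that from the AST pair. Leaving out each array in turn gave 4600 to 5652 genes for OPCL61 against OPC, 3647 to 4766 for the difference from the NSC pair and 3257 to 4547 for that from the AST pair. A lone remaining array is assumed there to vary like the other groups. With the replicate number as a block the counts were 6133, 4810 and 4434, but the numbers do not pair the samples: the correlation of same-numbered deviations between OPC and OPCL61 was 0.02. Chromosome medians kept their direction under alternatives chosen after seeing the data, with chromosome 4 at -0.25 after median centring and -0.27 after quantile normalisation. With only genes above the 75th percentile, chromosome 19 moved to 0.40, 2 to 0.37, 4 to -0.37 and 15 to -0.33. Where a gene has several probe sets over the filter, 199 of 3232 called genes (6.16%) had another probe set called in the opposite direction. With no scanner signal in the table, probe background could not be judged.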

Other observations

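Several of the largest rises fell outside the gene lists. Thbs1, which encodes the matrix protein thrombospondin-1, was higher by 6.44 log2 units, Ahnak, a large scaffold protein, by 6.71, Capg, an actin-capping protein, by 6.26, and Tes, a focal adhesion protein, by 6.26.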
